A study of Mus musculus with 3 samples.

Results

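Small nucleolar RNAs (snoRNAs) and small Cajal body RNAs (scaRNAs) are short nuclear RNAs that guide the chemical modification of other RNAs. C/D snoRNAs pair with ribosomal RNA and place a ribose methyl group through the methyltransferase fibrillarin. H/ACA snoRNAs direct the isomerisation of uridine to pseudouridine through dyskerin, and scaRNAs act in Cajal bodies, mostly on spliceosomal RNAs. Most mammalian members are cut from introns of host genes, many of which encode ribosomal proteins or serve only as carriers.

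The members were all rows with a symbol that starts with Snora, Snord or Scarna and a number, and they were selected on their measured level, a mean of at least 0.5 TPM (the authors' transcript abundance scaled to gene length, of which each column sums to 1000000) over the 5 columns used. This gave 120 members of 126 rows with such a symbol, among 19924 genes above the same level and 32545 rows in all. There were 75 C/D members, 38 H/ACA members and 7 scaRNA members. The members nearest the threshold were Scarna2 at a mean TPM of 0.751 and Scarna3a at 0.873, and the nearest rows below it were Snord92 at 0.412 and Snord67 at 0.296. The rule used the same values as the comparisons below, so a member may have passed through the columns in which it was high.

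The cells were E3 mouse embryonic stem cells at passage 7, cultured on feeder fibroblasts. The control carried the empty vector (1 labelled sample, with 1 column used here), and the stable shRNA lines KD4 and KD9, each a picked single clone, carried a knockdown of Usp17l (1 labelled sample and 2 columns each). The shRNAs target a region shared by the Usp17l deubiquitinase genes. Columns of a line were averaged as TPM and counted as 1 replicate, so a fold change of 1 line against the control has no replicate check. The table also holds 1 further column named as a control, which was not used because no label names its sample, so every comparison with the control rests on 1 column. The study's legends speak of biological replicates for TPM values after the knockdown but do not tie them to columns, and the labels do not say whether columns come from separate cultures. The p-values measure the spread between the lines only.

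Usp17le, the target above the level filter, had a TPM of 1.82 in the control, 0.151 and 0.0638 in the columns of KD4 and 0.331 and 0.374 in those of KD9. Libraries held 19744053 to 28975755 reads in genes for which whole reads could be recovered from the TPM, with the second KD4 column the shallowest. Stem cell markers such as Pou5f1 were abundant in every column (686 to 1060 TPM). The 26 feeder fibroblast markers summed to 8568 TPM in the control, 3110 and 3184 in KD4 and 6250 and 6172 in KD9, and 21 of them were over 2-fold lower in KD4. In KD9 0 were over 2-fold lower and 3 (Dcn, Lum and Mmp3) over 2-fold higher, with a median of -0.21 on the log2 scale, and 17 of the 26 were below the control in both lines. In such bulk samples fewer feeder cells and less RNA per cell cannot be told apart.

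The sequences of the members on which the results turn are printed first, in the transcript's 5′ to 3′ direction as GENCODE M21 (GRCm38) gives them. The first set holds C/D members, with the C box TGATGA (searched in the first 20 bases of the transcript's own strand) and the D box CTGA (in the last 12 bases) in capitals. Snord78 was the most abundant member, Snord83b and Snord32a were off the control in both lines, Snord104 had no annotated host, and Snord14c and Snord14d are a near-identical pair.
Snord78: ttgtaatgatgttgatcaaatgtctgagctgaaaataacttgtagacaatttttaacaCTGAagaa
Snord83b: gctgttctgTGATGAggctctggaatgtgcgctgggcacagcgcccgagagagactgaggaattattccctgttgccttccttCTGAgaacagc
Snord32a: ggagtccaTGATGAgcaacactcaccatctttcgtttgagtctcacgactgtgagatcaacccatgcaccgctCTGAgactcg
Snord104: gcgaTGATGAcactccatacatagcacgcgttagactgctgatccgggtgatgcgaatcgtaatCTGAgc
Snord14c: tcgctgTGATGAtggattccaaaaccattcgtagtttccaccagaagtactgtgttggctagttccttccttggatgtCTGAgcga
Snord14d: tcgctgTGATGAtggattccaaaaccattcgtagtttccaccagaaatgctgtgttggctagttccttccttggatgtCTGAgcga

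Both boxes were found in 44 of 75 C/D members, in 0 of 38 H/ACA members and in 3 of 7 scaRNAs. Snord78 carried no exact TGATGA in this window, and only its D box is in capitals. A missing match says only that these letters are not in the window. C/D members had a median length of 78 bases (64 to 238).

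The H/ACA set shows the ACA box, searched in the last 6 bases, in capitals. Snora65 was the most abundant H/ACA member, Snora28 was lower in both lines, and Snora57 had no annotated host.
Snora65: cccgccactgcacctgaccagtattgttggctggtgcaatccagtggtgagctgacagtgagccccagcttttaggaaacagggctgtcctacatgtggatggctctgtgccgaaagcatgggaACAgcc
Snora28: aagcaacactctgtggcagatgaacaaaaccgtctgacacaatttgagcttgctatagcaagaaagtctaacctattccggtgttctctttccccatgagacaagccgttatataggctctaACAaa
Snora57: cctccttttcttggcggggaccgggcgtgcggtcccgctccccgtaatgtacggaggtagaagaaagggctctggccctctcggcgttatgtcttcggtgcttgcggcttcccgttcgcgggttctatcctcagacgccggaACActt

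ACA lay in this window in 35 of 38 H/ACA members and in 3 of 75 C/D members. H/ACA members had a median length of 132.5 bases (121 to 205). Snora28 lies at chr12:111540941-111541067 on the plus strand, wholly inside an annotated exon of Eif5, and Snora57 at chr19:8888538-8888685 on the minus strand.

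The scaRNA class was mixed in its sequences, and 2 of its models are printed because the largest fold changes fall on such short, thinly covered genes. The model of Scarna9, of 70 bases, carried a C box and a D box, and that of Scarna8, of 131 bases, carried the ACA box; these boxes are in capitals.
Scarna9: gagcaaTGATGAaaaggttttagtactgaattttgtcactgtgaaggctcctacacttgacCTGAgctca
Scarna8: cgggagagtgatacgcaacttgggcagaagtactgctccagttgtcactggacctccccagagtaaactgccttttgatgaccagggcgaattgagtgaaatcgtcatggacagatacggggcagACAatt

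By median TPM, C/D members were above H/ACA members in all columns but the second of KD4, and scaRNAs were the lowest class in every column. By reads, which are not scaled to length, the order of the first 2 classes was the other way, with medians over the 5 columns together of 250 for H/ACA members, 211 for C/D members and 14 for scaRNAs. The median TPM over C/D members was 56.0 in the control, 60.4 and 37.5 in the columns of KD4 and 49.3 and 41.9 in those of KD9. Over H/ACA members it was 32.8 in the control, 42.3 and 39.0 in KD4 and 33.3 and 30.9 in KD9. Over scaRNAs it was 0.744, then 0.765 and 2.45, then 1.79 and 0.858. Mean levels ran from 1.56 to 618.5 TPM among C/D members, from 0.952 to 243 among H/ACA members and from 0.751 to 4.09 among scaRNAs, so no scaRNA reached the median of the other classes. Levels were above 0 in every column for 69 C/D members, 37 H/ACA members and 3 scaRNAs.

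**Figure D1:**
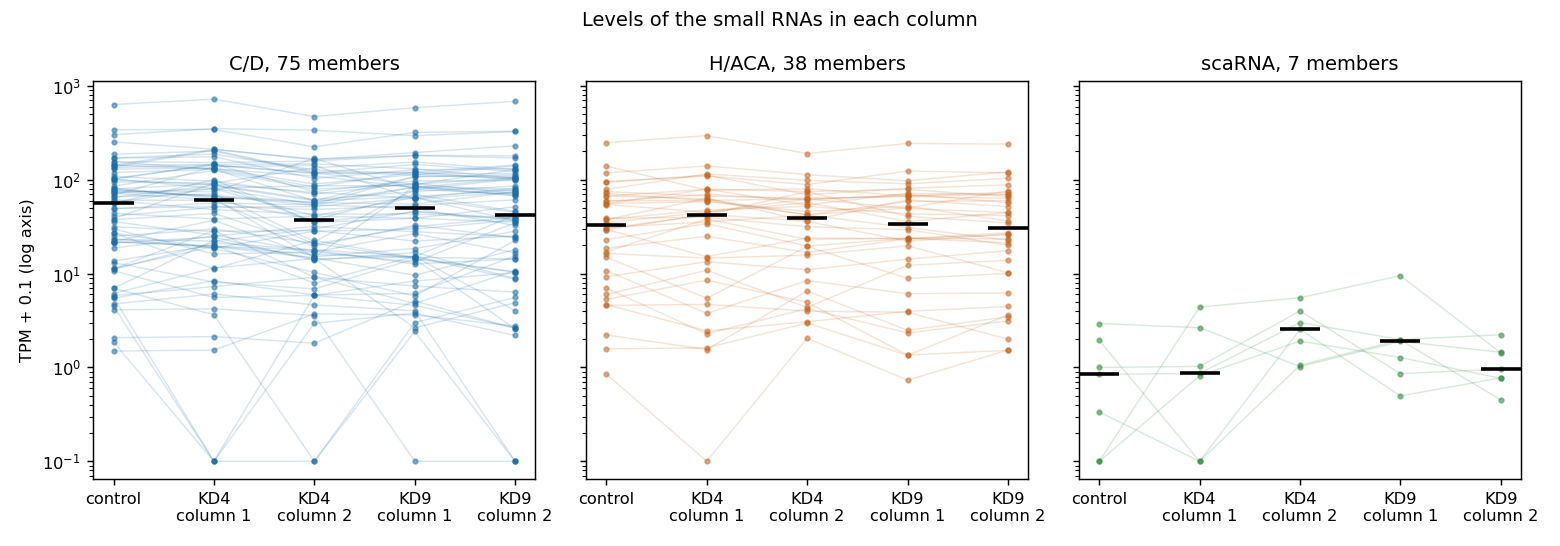
TPM + 0.1 on a log axis for each member (points joined by thin lines) in the 5 columns, by class, with black bars at the class median. C/D medians lie between 37.5 and 60.4 TPM and scaRNA medians between 0.744 and 2.45, and the C/D median is lowest in the second KD4 column.

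Behind these levels stood few reads. One read was worth 1.48 TPM in the control for the 66 bases of Snord78, and 428 control reads gave its level there. The members had a median of 196 reads over the 5 columns together (6 to 2103), against 1678 over 19530 genes whose whole reads were recovered. All 7 scaRNAs had under 10 reads in the control, where they held 18 reads in all. The libraries were made from poly(A)-selected RNA and mature members lack a poly(A) tail, so how much of each level comes from mature RNA, and how much from host precursors, cannot be told apart. In 54 members the whole gene lay inside an annotated exon of a host on the same strand, in 8 it lay partly in one, 53 lay in a host intron and 5 had no annotated host. The study's methods name featureCounts with default settings, which leave a read that overlaps more than 1 gene unassigned, yet all 54 members inside host exons hold reads. The sources used here do not name the annotation, so how such reads were assigned, and what the levels of these members measure, is not known. Members inside a host exon were at a median of 73.1 TPM in the control and those in introns at 16.3.

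Snord78, which guides methylation of 28S rRNA in human cells and lies in the non-coding host Gas5, was at 632 TPM in the control, 721 and 470 in the columns of KD4 and 586 and 683 in those of KD9. The control lay within the range of the knockdown columns. Snord22, in Snhg1, was at 301 TPM in the control, 350 and 337 in KD4 and 294 and 326 in KD9. Snord96a, in Rack1, was at 341, then 343 and 224, then 319 and 328 TPM, and its second KD4 column was the lowest of all. Snord52, in 1110038B12Rik, was at 253 TPM in the control and between 163 and 230 in the knockdown columns. Snord100, in Rps12, was at 142 TPM in the control and between 166 and 209.9 in the knockdown columns. The control was thus above all 4 knockdown columns for Snord52 and below them for Snord100.

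Among H/ACA members, Snora65, in Rpl12, was at 248 TPM in the control, 294 and 190 in KD4 and 243 and 239 in KD9. Snora68 was at 118, then 140.0 and 113, then 97.3 and 121 TPM. Neither separated the control from the lines. Snora9, in Snhg15, was at 95.3 TPM in the control, 109 and 88.6 in KD4 and 124 and 118 in KD9. Snora64, in Rps2, was at 78.6 TPM in the control and between 90.2 and 115 in the knockdown columns, and Snora61, in Snhg12, was at 93.7 and between 69.2 and 112. The control lay below all knockdown columns for Snora64 only among these 5.

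The most abundant scaRNAs were at the level of single reads. Scarna9 had 0 reads in the control, 3 and 3 in the columns of KD4 and 8 and 1 in those of KD9. Scarna13, in Snhg10, had 8, then 7 and 2, then 6 and 4 reads. Scarna8, in Haus6, had 1, then 1 and 3, then 3 and 3. Scarna10, whose human counterpart guides both kinds of modification on U5 RNA, had 3 reads in every column but the second of KD4, which had 10. Scarna6, in Atg16l1, had 5, then 0 and 2, then 6 and 1 reads. These counts leave the direction of each of the 5 undetermined at this depth, since every 95% counting interval of a line against the control contained 1.

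No member passed the test of knockdown against control. The test was limma on log2(TPM + 0.1) with 1 control and 2 lines, adjusted by Benjamini-Hochberg over all 19924 genes, and it called 0 of them (0.0%). At an unadjusted p under 0.05, limma listed 4 of 120 members as higher and 6 as lower, against 543 and 514 of 19924 genes. At the same unadjusted p, voom on the recovered reads, with the columns of a line summed, listed 1 and 0 of 120 members. Over all 19530 genes with recovered reads it listed 303 and 516. The lowest adjusted p of a member by limma was 0.490 for Scarna9. When each column entered as its own library, a fit in which the columns stand for replicates that the labels do not give, limma called 1 member higher and 2 lower, against 4.07% and 6.98% of all genes. These were Snord83b (log2 fold change 0.54 ± 0.07 SE, adjusted p = 0.033), Snora28 (-0.91 ± 0.07 SE, adjusted p = 0.014) and Snord85 (-2.72 ± 0.29 SE, adjusted p = 0.023). Snord85 had 3 reads in the control, 3 and 2 in KD4 and 0 in both KD9 columns.

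Class medians stayed near those of all genes for the abundant classes. H/ACA members had median log2 fold changes of 0.12 (KD4) and -0.05 (KD9), and C/D members of -0.08 and -0.21, against -0.01 and -0.05 over all genes. The median of H/ACA members was 0.20 with the first KD4 column alone and -0.085 with the second, and that of C/D members was 0.040 and -0.30. The scaRNA median was 1.33 in KD4 and 0.92 in KD9, on 7 genes with 18 control reads between them. It was 0.04 in KD4 with the first column alone and 2.00 with the second. With members that had no read in a group set at the bound that 3 reads give, and Scarna3a left out, it was 0.70 and 0.14. Summed over members, H/ACA reads in KD4 stood at 1.04 times the control (95% counting interval 0.986 to 1.09) and C/D reads at 0.979 times (0.944 to 1.01). In KD9 the ratios were 0.976 (0.931 to 1.02) and 0.934 (0.902 to 0.967). Such intervals cover counting error only, and reads are not independent molecules.

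Fold changes over 2 fell mostly on members with few reads. In KD4, 8 members (6.67%) were over 2-fold higher and 6 (5.0%) lower than the control, against 5.54% and 9.0% of all genes. In KD9, 6 (5.0%) were higher and 7 (5.83%) lower, against 4.59% and 4.95%. Both lines shared 4 higher (3.33%) and 2 lower members (1.67%), against 2.71% and 2.83% of all genes, and they share the control. Members with under 10 reads a column on average numbered 30, and they made up 11 of the 14 changes in KD4 and 9 of the 13 in KD9. Among the 50 members with 50 or more reads a column, 2 changed by over 2-fold in KD4 and 0 in KD9. No member was over 2-fold higher in one line and over 2-fold lower in the other.

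**Figure D2:**
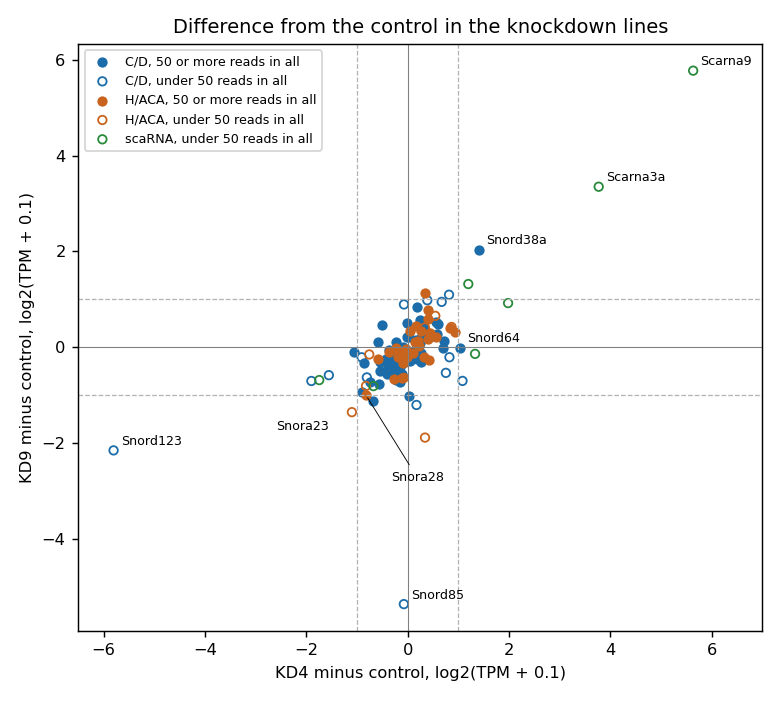
Difference from the control on the log2(TPM + 0.1) scale in KD4 (horizontal axis) and KD9 (vertical axis) for 120 members by class. Open points had under 50 reads over the 5 columns, and dashed lines mark 2-fold. Most filled points lie within 2-fold on both axes, and the far points Scarna9, Scarna3a, Snord123 and Snord85 are open ones with 0 reads in a group, whose place depends on the pseudocount.

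The members over 2-fold higher in both lines were Scarna9, Scarna3a, Snord38a and Scarna8. Snord38a, which guides methylation of 28S rRNA in human cells, was at 6.87 TPM in the control (5 reads), 22.6 and 14.3 in KD4 (16 and 8 reads) and 15.1 and 41.9 in KD9 (13 and 32 reads). All knockdown columns were above the control, and the KD9 columns differed from each other. Its reads in KD4 stood at 2.76 times the control (95% counting interval 1.03 to 9.24) and in KD9 at 4.03 times (1.60 to 13.0), with an adjusted p of 0.677 by limma. For Scarna9, with 0 control reads against 6 in KD4 and 9 in KD9, the lower ends of the counting intervals were 0.676 and 0.884 times the control, so its direction is undetermined. The hosts Cep295 of Scarna9 and Haus6 of Scarna8 were at log2 fold changes of 0.25 and -0.22, and of 0.23 and -0.28. Scarna3a had 0 control reads and 3 reads in each line, which allows no fold. Scarna8 stood at 2.30 times the control in KD4 (0.227 to 113) and 2.69 times in KD9 (0.326 to 123.5).

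The members over 2-fold lower in both lines were Snord123 and Snora23. Snora23, in Ipo7, was at 6.89 TPM in the control (13 reads), 2.18 and 4.13 in KD4 (4 and 6 reads) and 2.24 and 3.03 in KD9 (5 and 6 reads). All knockdown columns were below the control. The read ratio was 0.441 in KD4 (0.173 to 1.09) and 0.379 in KD9 (0.154 to 0.916), with an adjusted p of 0.817 by limma. Ipo7 itself was at -0.10 and -0.30 on the log2 scale. Snord123, in Snhg18, had 4 control reads, 0 in both KD4 columns and 2 and 0 in KD9. With KD4 set at a floor of 3 reads over the line, its level there was 2.32-fold below the control. That figure leaves out the counting error of the 4 control reads, so it is not a lower limit. The counting interval of Snord123 lay below 1 in KD4, and in KD9 its ratio was 0.224 (0.0203 to 1.56).

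Read ratios give a closer view of members with more reads. The 95% counting interval of a line against the control left out 1 for 18 members in KD4, against 58.6% of 19530 genes, and for 20 members in KD9, against 52.6%. Members had fewer reads than most genes, so their intervals were wider. In both lines the interval lay above 1 for Snord83b and Snord38a, against 11.1% of all genes, and below 1 for Snora28 and Snord32a, against 18.1%. These 4, chosen after their values were seen, are the members whose intervals left out 1 in the same direction in both lines. The intervals were not adjusted for the 120 members, and both lines share 1 control column. Counting error is therefore not excluded for them.

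Snora28 guides pseudouridylation of 18S rRNA in human cells. It was at 139.7 TPM in the control (182 reads), 77.3 and 79.8 in the columns of KD4 (98 and 80 reads) and 67.3 and 73.2 in those of KD9 (104 and 100 reads). The knockdown columns lay close together and well below the control. Its ratio was 0.561 in KD4 (95% counting interval 0.454 to 0.694) and 0.502 in KD9 (0.409 to 0.616). The columns of a line differed by less than counting error (ratio 0.969, 0.714 to 1.32, in KD4 and 0.920, 0.692 to 1.22, in KD9). By limma over lines it was at -0.91 ± 0.25 SE with an adjusted p of 0.796. Its host Eif5, a translation initiation factor, was at 190.7 TPM in the control, 176 and 173 in KD4 and 144 and 145 in KD9. The host's log2 fold changes were -0.13 and -0.40, against -0.83 and -0.99 for Snora28. The nearest other annotated snoRNA was 68.7% identical.

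Snord83b, in an intron of Rpl3, was at 57.0 TPM in the control, 81.0 and 86.2 in KD4 and 85.7 and 79.1 in KD9. The knockdown columns did not overlap the control, and the ratio was 1.46 in KD4 (1.06 to 2.03) and 1.45 in KD9 (1.06 to 2.00). Rpl3 was at log2 fold changes of 0.40 and 0.03. Snord32a, in an intron of Rpl13a, guides methylation of rRNA and was at 155 TPM in the control, 129 and 83.9 in KD4 and 121 and 99.7 in KD9. Its ratio was 0.704 in KD4 (0.556 to 0.893) and 0.716 in KD9 (0.573 to 0.896), while Rpl13a was at 0.41 and 0.19. The adjusted p by limma was 1.00 for both. Over all members, the control lay above all 4 knockdown columns for 27, against 29.5% of all genes, and below them for 18, against 20.8%.

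**Figure D3:**
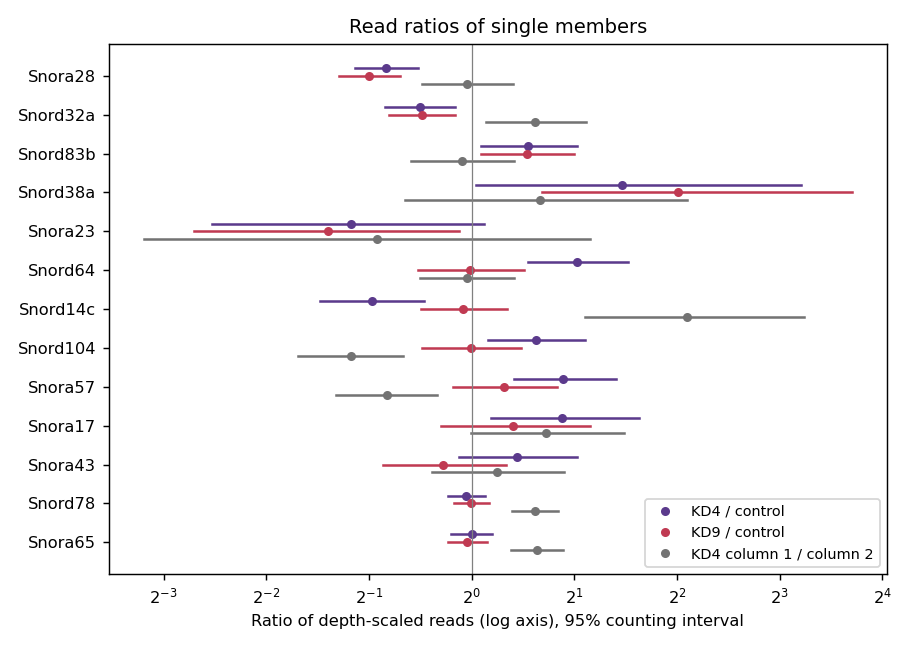
Ratio of depth-scaled reads (log axis) with 95% counting intervals for 13 members, for KD4 over control, KD9 over control and the first over the second column of KD4. Snora28 lies at 0.561 and 0.502 against the control with columns at 0.969, while Snord14c, Snord104 and Snora57 differ between the columns of KD4.

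By log2 difference, the columns of 1 line agreed less well for these RNAs than for all genes, which had more reads. The median absolute difference between columns over members was 0.53 on the log2 scale in KD4 and 0.30 in KD9, against 0.14 and 0.09 over all genes. Columns were over 2-fold apart for 27 members (22.5%) in KD4, against 7.72% of all genes, and for 13 (10.8%) in KD9, against 5.21%. By class these were 16 C/D members, 5 H/ACA members and 6 scaRNAs in KD4, and 9, 2 and 2 in KD9. The difference shrank with reads. In KD9 the median was 0.81 for members under 10 reads a column, 0.33 from 10 to under 50 and 0.21 from 50 up, but in KD4 it was 1.03, 0.52 and 0.46. The counting interval of the column ratio left out 1 for 33 of 120 members in KD4, against 24.0% of all genes, and for 12 of 120 in KD9, against 14.1%. By this measure the share of members was above that of all genes in KD4 and below it in KD9.

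The KD4 columns were further apart for the members than the first KD4 column was from the control. The median absolute difference was 0.53 between the KD4 columns, 0.31 between the first and the control, and 0.46 between the second and the control. Over all genes these medians were 0.14, 0.32 and 0.35. The second column was the lowest of all 5 for 40 members and the first was the highest for 46. These counts were not made over all genes, so they do not show that the members differ from other genes. C/D reads stood 1.32 times higher in the first KD4 column than in the second (95% counting interval 1.26 to 1.38) and H/ACA reads 1.16 times (1.10 to 1.24), while the KD9 columns gave 0.972 (0.934 to 1.01) and 1.01 (0.959 to 1.07). The scaRNAs ran the other way, with 15 reads in the first KD4 column and 30 in the second (0.396, 0.198 to 0.759). The first KD4 column was the higher one for 77 of 120 members, against 9028 of 19924 genes. By location these were 42 of 54 members wholly inside a host exon, 28 of 53 in a host intron and 2 of 5 without a host. Members inside an exon had a median of 75 control reads and those in an intron 16.

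**Figure D4:**
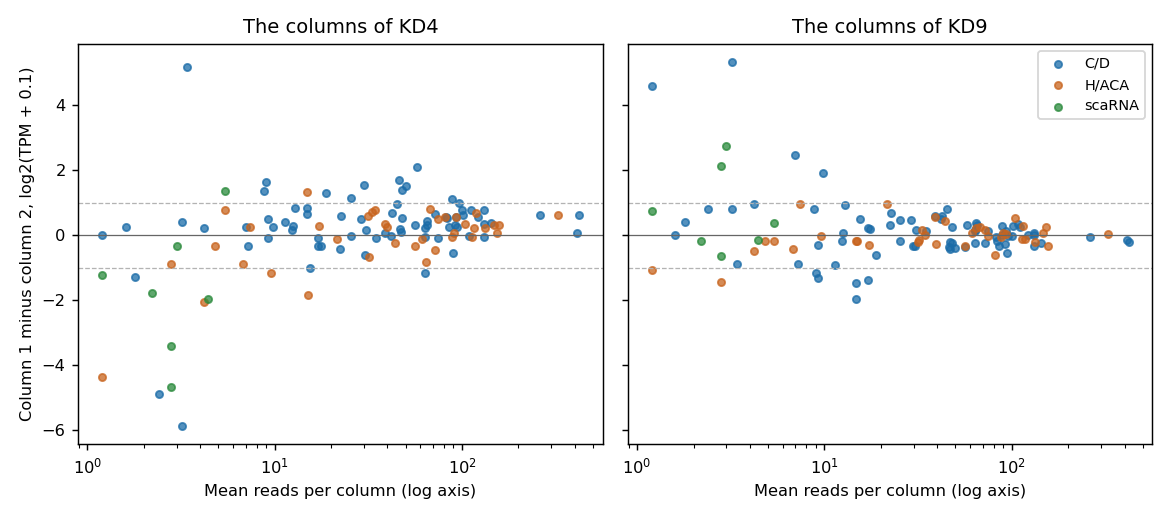
First minus second column on the log2(TPM + 0.1) scale against mean reads per column (log axis) for the 120 members, with KD4 on the left and KD9 on the right. The spread narrows with reads in KD9, while in KD4 the C/D and H/ACA classes lie mostly above 0, at medians of 0.32 and 0.22.

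The members that were high in the second KD4 column included some with no annotated host. Snord104 was at 75.2 TPM in the control, 74.4 and 168 in the columns of KD4 and 78.7 and 70.4 in KD9. Only the second KD4 column stood apart, with a column ratio of 0.442 (0.309 to 0.628). Snora57 was at 30.3 TPM in the control, 42.0 and 74.5 in KD4 and 40.6 and 34.6 in KD9, with a column ratio of 0.564 (0.400 to 0.790). Scarna2, whose human counterpart guides methylation of U2 RNA, had 1 read in the control, 0 and 8 in KD4 and 2 and 3 in KD9. Snora17 and Snora43, also without a host, were higher in the first KD4 column (38.0 against 23.0 TPM, and 42.6 against 35.9). Other short RNAs that carry no poly(A) tail moved in both directions between these columns. Of 16 such genes in the table, 11 were above the filter, of which 6 were higher in the second KD4 column, and the 16 summed to 71.8 and 58.9 TPM in the KD4 columns. Of the 16, Rnu73b and the Rnu3 genes are themselves annotated as snoRNA genes, outside the rule for members. Rnu73b was at 39.5 and 12.5 TPM (28 and 7 reads), a larger fall than that of the sum. The other genes of the list together were thus higher in the second KD4 column. Rnu7, the U7 RNA of histone mRNA processing, was at 11.3 and 8.17 TPM (7 and 4 reads). In the other direction Terc, the telomerase RNA, was at 0.948 and 4.19 TPM (4 and 14 reads). Rpph1, the RNA of RNase P, was at 3.14 and 11.9 TPM (10 and 30 reads). Rmrp, the RNA of RNase MRP, was at 1.48 and 4.67 TPM (4 and 10 reads). For Terc, Rpph1 and Rmrp the control and KD9 columns were at 0.659 to 0.972, 2.75 to 4.08 and 1.72 to 2.43 TPM. All of these values rest on few reads. Histone genes summed to 234 and 214 TPM in the KD4 columns and microRNA genes to 59380 and 43340. The part of library preparation or RNA quality in these differences was not tested.

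Near-identical members showed how single columns can move 1 copy. Snord14c and Snord14d, copies of the U14 RNA in Hspa8 that are 97.7% identical, were at 81.6 and 102 TPM in the control. In the first KD4 column they were at 62.9 and 80.4 and in the second at 14.7 and 54.5, while the KD9 columns were at 85.1 and 68.1 for Snord14c and 107 and 112 for Snord14d. Snord14c had 54 and 10 reads in the KD4 columns (ratio 4.27, 2.15 to 9.41). Of the 120 members, 35 had another annotated snoRNA of at least 90% identity and 3 had an identical one. Since only uniquely mapped reads were counted, the levels of such members are uncertain. The largest log2 differences between columns fell on members with a column at 0. These were Snord8 (0 and 5 reads in KD4), Snord11 (4 and 0 in KD9), Snord71 (3 and 0 in KD4), Snord111 (0 and 2 in KD4), Snord123 (2 and 0 in KD9) and Scarna2.

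Snord64, from the imprinted Snrpn region, was over 2-fold higher in KD4 alone and was well covered. It was at 68.4 TPM in the control (47 reads), 138 and 142 in KD4 (92 and 75 reads) and 62.6 and 73.6 in KD9 (51 and 53 reads). Both KD4 columns lay above the rest, with a ratio of 2.04 in KD4 (1.47 to 2.88) and 0.991 in KD9 (0.695 to 1.43). Its host transcript Gm38393 was at 0.62 and -0.37 on the log2 scale. A test of KD4 against KD9 was not run.

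Members and their hosts moved together only weakly. Over 114 members with a host in the table (82 hosts), Pearson's r of the log2 fold changes was 0.35 in KD4 and 0.15 in KD9, and over the 48 with 50 or more reads a column it was 0.33 and 0.37. Members of 1 host, and all members through the control, share values in this correlation, and member and host reads cannot be told apart inside exons. In KD4 the hosts of the well-covered members were at a median of 0.32 and the members at -0.04, with 39 of 48 members below their host, and in KD9 the medians were 0.10 and -0.07. Hosts that encode ribosomal proteins had a median of 0.39 (KD4) and 0.15 (KD9), and their 33 members at 0.03 and -0.04. The 33 members in hosts grouped as non-coding were at -0.01 and -0.15, against 0.07 and -0.04 for those hosts. This group includes Snora15 in Cct6a, a gene that encodes a protein. Gas5 was at 0.33 and 0.23 while Snord78 within it was at -0.09 and 0.01. Among the other hosts of abundant members, Rack1 was at 0.16 and 0.10, Rpl12 at 0.39 and 0.28 and Snhg1 at 0.03 and -0.23.

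The genes of the proteins that bind these RNAs did not pass the test, and neither did any other gene. Of 25 genes listed for the guide RNA particles, their assembly and the Cajal body, 23 were in the table and all 23 were above the filter. Of these, 0 were over 2-fold from the control in either line. Over all genes 5.54% were over 2-fold higher and 9.0% lower in KD4, and 4.59% and 4.95% in KD9. On the log2 scale the median of the 23 was 0.18 (KD4) and -0.18 (KD9). Dkc1, the pseudouridine synthase dyskerin, was at 111 TPM in the control, 151 and 162 in KD4 and 109.6 and 110.1 in KD9. Fbl, the methyltransferase fibrillarin, was at 113, then 126 and 181, then 104 and 99.7 TPM. KD4 columns were above the control for both and KD9 columns below it. Nop56, a core C/D protein and host of Snord57 and Snord110, was at 313, then 307 and 302, then 258 and 252 TPM. Nop10 and Gar1 of the H/ACA particle were at log2 fold changes of -0.29 and -0.52, and of 0.22 and -0.24. Nhp2 was at 0.40 and -0.05, Naf1 at 0.09 and -0.27 and Shq1 at 0.29 and -0.07. Nop58 was at 0.31 and -0.28 and Snu13 at -0.13 and -0.24. Coil, the scaffold of the Cajal body, was at 0.09 and -0.17 and Wrap53, which brings scaRNAs there, at 0.26 and 0.00. Smn1, Nolc1, Tgs1 and Phax lay between -0.02 and 0.18 in KD4 and between -0.29 and 0.01 in KD9. The assembly factors Ruvbl1, Ruvbl2, Nufip1, Znhit3, Znhit6, Pih1d1 and Rpap3 lay between -0.25 and 0.58 in KD4 and between -0.50 and 0.23 in KD9.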

How the data were processed

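RNA was made into poly(A)-selected libraries. The TPM values were deposited by the authors, who used Trim Galore, then HISAT2 on mm10, then featureCounts with default settings on reads that mapped uniquely. Tool versions and the annotation are not given in the sources used here. 1 further per-sample column of the table, named as a control, was not used here, since no label names its sample.

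Values were set as log2(TPM + 0.1) and tested with limma 3.58.1 in R 4.3.3 (eBayes with a trend, two-sided, Benjamini-Hochberg) over the 19924 genes whose mean TPM reached 0.5. With 1 control, its spread is taken to be that of the lines. In each column, TPM times the GENCODE M21 exon length (GRCm38, the build of mm10) gave whole multiples of 1 step within 0.01 for 98.7% to 98.8% of genes above 0, and for all 120 members, and these multiples were taken as reads. Voom on them called 0 genes with the columns of a line summed, and 0 higher and 13 lower with each column as its own library and 1 knockdown group. Ratios of reads have exact 95% conditional intervals (scipy 1.17.1) and were tested on simulated data, as was the limma fit. Sequences and hosts (same-strand genes that hold the member) come from GENCODE M21.

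The members and gene lists were chosen with earlier results of these data known. Named are the 5 most abundant members of each class, those over 2-fold from the control in both lines with all columns on 1 side, the 6 with the largest column difference, those beside the threshold, the hosts, the guide RNA proteins and the target. Others were named after their values were seen. The values of some hosts are not reported here. Lists of markers, nuclear long RNAs and RNAs with no poly(A) tail stand beside them. The alternatives tried are in the closing section.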

Additional observations from a re-analysis of the deposited data

How the results depend on the processing

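Counts of members over 2-fold depended on low values. They are given here as higher in KD4, lower in KD4, higher in KD9, lower in KD9, and then higher and lower in both lines, with only those named that moved by over 1.5 times. With a pseudocount of 1 the higher members were 4 in KD4, 3 in KD9 and 2 in both, and 1 was lower in both. These were 3.33%, 2.5%, 1.67% and 0.833% of members, against 2.82%, 2.18%, 0.913% and 1.49% of all genes. With no filter 10 were higher in KD9 (7.94%, against 8.19% of all genes). For members whose mean TPM reached 5 the counts were 3, 1, 2, 2, 1 and 0. Their shares were 3.06%, 1.02%, 2.04%, 2.04%, 1.02% and 0.0%, against 2.36%, 5.35%, 1.51%, 1.57%, 0.798% and 0.914% of all such genes. With at least 50 reads over the columns, a minimum added after seeing the data, they were 2, 1, 2, 2, 1 and 0. As shares these were 2.22%, 1.11%, 2.22%, 2.22%, 1.11% and 0.0%, against 3.48%, 7.67%, 2.71%, 3.07%, 1.29% and 1.92% of such genes. With the first column of each line 10 were lower in KD4 (8.33%, against 9.85% of all genes). With the second 14 were higher in KD4 (11.7%, against 5.83%) and 15 lower in KD9 (12.5%, against 5.61%). At 1.5-fold they were 19, 18, 13, 23, 7 and 11, and at 3-fold 3, 3, 3, 3, 2 and 1. The 1.5-fold shares were 15.8%, 15.0%, 10.8%, 19.2%, 5.83% and 9.17%, against 11.5%, 17.4%, 9.35%, 11.0%, 5.32% and 6.62% of all genes. Those at 3-fold were 2.5%, 2.5%, 2.5%, 2.5%, 1.7% and 0.83%, against 2.5%, 4.7%, 2.4%, 2.1%, 1.4% and 1.1%. With 1 line left out, the members higher in what remained numbered 6 to 8 (5.0% to 6.67%) and those lower 6 to 7 (5.0% to 5.83%). All genes were at 4.59% to 5.54% and at 4.95% to 9.0%.

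The H/ACA median in KD4 was -0.085 with the second column, and the C/D median there was 0.040 with the first column and -0.30 with the second. The scaRNA median was 0.84 in KD4 and 0.31 in KD9 with a pseudocount of 1, 0.49 in KD9 with 0.5, 0.93 in KD4 with columns averaged after the log, 0.035 and 0.57 with the first columns and 2.00 in KD4 with the second. Scarna2 turned from 1.98 to -1.75 in KD4 with the first column. Limma called 3 members with each column as its own library and 0 under the other settings run. Voom and the fit with 1 knockdown group were added after seeing the data. Differences between columns of a line moved by less than the difference between the lines under every setting run. No paired analysis was possible because the labels give no replicate number that the control and the lines share. Depth limits the scaRNAs most, with 15 to 30 reads in a column over all 7.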

Other observations

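C/D snoRNA genes in Rian, whose symbols fall outside the rule for members, were lower in both knockdown lines. Rian is a non-coding host of the imprinted Dlk1-Dio3 region on chromosome 12, and its span in GENCODE M21 holds 13 annotated snoRNA genes of the table, all of them above a mean TPM of 0.5. Their summed level was 1056 TPM in the control, 599 and 485 in the columns of KD4 and 510 and 586 in those of KD9. Of the 13 genes, 12 were below the control in both lines, and the control was above all 4 knockdown columns for 11 and below them for 1, against 29.5% and 20.8% of all 19924 genes. Their median on the log2 scale was -1.47 (KD4) and -1.40 (KD9).

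Gm24895 made up most of this level, at 885 TPM in the control (672 reads), 532 and 433 in KD4 (393 and 253 reads) and 447 and 514 in KD9 (402 and 409 reads). Gm23474 was at 48.1 TPM in the control, 18.7 and 5.07 in KD4 and 11.0 and 21.1 in KD9. The exception was DQ267101, with 0 control reads, 6 and 1 in KD4 and 3 and 1 in KD9. Rian itself was at 35.5 TPM in the control, 20.1 and 18.3 in KD4 and 20.5 and 20.8 in KD9, and its neighbours Meg3 and Mirg were at log2 fold changes of -0.77 and -0.44, and of -0.48 and -0.62. None of these passed limma (adjusted p = 0.829 for Rian, for a change of -0.83 ± 0.25 SE). The group was picked after its values were seen, 11 of its genes had under 20 reads in every column, and the feeder markers, which summed to 8568 TPM in the control, 3110 and 3184 in KD4 and 6250 and 6172 in KD9, had a lower sum in both lines as well, with 17 of 26 markers below the control in both and 3 over 2-fold higher in KD9. Their part in the difference was not tested.

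Over all 228 other annotated snoRNA and scaRNA genes above the filter, the median of the first minus the second KD4 column was 0.29 on the log2 scale, against 0.00 for KD9. The level summed over all 326 such genes of the table, with or without the filter, was 10500 TPM in the control. It was 10880 and 9235 in the KD4 columns and 9722 and 9766 in the KD9 columns.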
